A study of Homo sapiens with 6 samples.

Results

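Histone gene expression was followed by RNA sequencing in the human T-ALL (T-cell acute lymphoblastic leukaemia) cell line CUTLL1. The cells were infected with lentivirus that carried either a hairpin RNA directed at AURKB (shAURKB) or a control hairpin named for GFP (shGFP). The members were the 88 genes whose names begin with HIST1H to HIST4H, called clustered genes here, and 8 histone variant genes (H2AFX, H2AFZ, H2AFV, H2AFY, H3F3A, H3F3B, H1F0 and H1FX). Together they made 96 of the 50868 genes counted, and they were taken by name alone. Each arm had 3 cultures that the series calls biological replicates, all carried virus under puromycin selection, and RNA was taken after 48 h. One hairpin label was given per arm, so the effect of a hairpin and of its target cannot be told apart. Whether tailed RNA was selected during library preparation is not given in the sources used here.

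Histones package DNA into nucleosomes, with H2A, H2B, H3 and H4 forming the core and H1 binding the linker DNA between cores. The protein-coding clustered genes mostly supply new histones while DNA is copied, and their mRNAs usually end in a conserved stem-loop instead of a poly(A) tail. Variant genes lie apart from the clusters, are transcribed outside S phase as well and give polyadenylated mRNAs. AURKB, the kinase of the chromosomal passenger complex, phosphorylates the tail of histone H3 in mitosis.

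The mature end of a clustered histone mRNA is set by the stem-loop, which is bound by the protein SLBP. The letters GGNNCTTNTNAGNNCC, searched on the transcript strand, were found in 34 of the 88 clustered genes and in 1 of the 8 variant genes, H2AFX, as annotated in GENCODE 29 (GRCh38). Over all annotated genes, 185 of 58676 (0.315%) held this pattern. Of the transcripts, 388 of 206694 (0.188%) held it and 472 (0.228%) held its reverse complement. The forms below were chosen to show how the stem varies between histone families and how H2AFX compares with them. Capitals mark the 16 bases of the pattern, and the lower-case letters are the 7 bases on each side.
HIST1H2BH, chr6:26252055-26252070, plus strand: acccaaaGGCTCTTTTCAGAGCCacttaat
HIST1H2AC, chr6:26124669-26124684, plus strand: acccaaaGGCTCTTTTCAGAGCCcccctac
HIST1H2BD, chr6:26158587-26158602, plus strand: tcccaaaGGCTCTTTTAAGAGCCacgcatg
HIST2H2BD, chr1:149843495-149843510, plus strand: ctccaaaGGCTCTTTTCAGGGCCacttaac
HIST1H4H, chr6:26285131-26285146, minus strand: aaccaaaGGCCCTTTTCAGGGCCgcccact
HIST2H4A, chr1:149833032-149833047, plus strand: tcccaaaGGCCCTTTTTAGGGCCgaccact
H2AFX, chr11:119094898-119094913, minus strand: ccacaaaGGCCCTTTTAAGGGCCaccaccg

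The form shown for HIST1H2BH was the commonest, with 18 genes of the H2A, H2B and H3 families. All 8 H4 genes with the pattern had one of the forms shown for HIST1H4H (5 genes) and HIST2H4A (3 genes). The H2AFX form was found in no other member. HIST2H2BD shared its form with HIST1H2AG alone. The remaining clustered genes with the pattern had the form shown for HIST1H2BD (5 genes) or, in HIST1H3E, a form with another loop.

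Many clustered genes carried both kinds of end in the annotation. A poly(A) signal (AATAAA or ATTAAA in the last 50 bases, and after any stem-loop) was present in all 8 variant genes and in 24 clustered genes. Of these 24, 22 had both a stem-loop and a signal. A further 12 clustered genes had the stem-loop alone, 51 had neither and 1, HIST2H2BC, was not matched to a model. In 24 clustered genes the model ran at least 100 bases past the stem-loop. Among all annotated genes, 44.96% had a poly(A) signal by the same search. A gene counted when any of its models held the signal, which was 1 of 20 models for H2AFY and 1 of 8 for H2AFV. Since 72 of the 96 members had a single model, genes with many models had more chances to count. A missing pattern says only that these letters are absent from the model: the HIST1H1C and HIST1H2BK models of 642 and 381 bases, for example, hold no pattern.

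**Figure D1:**
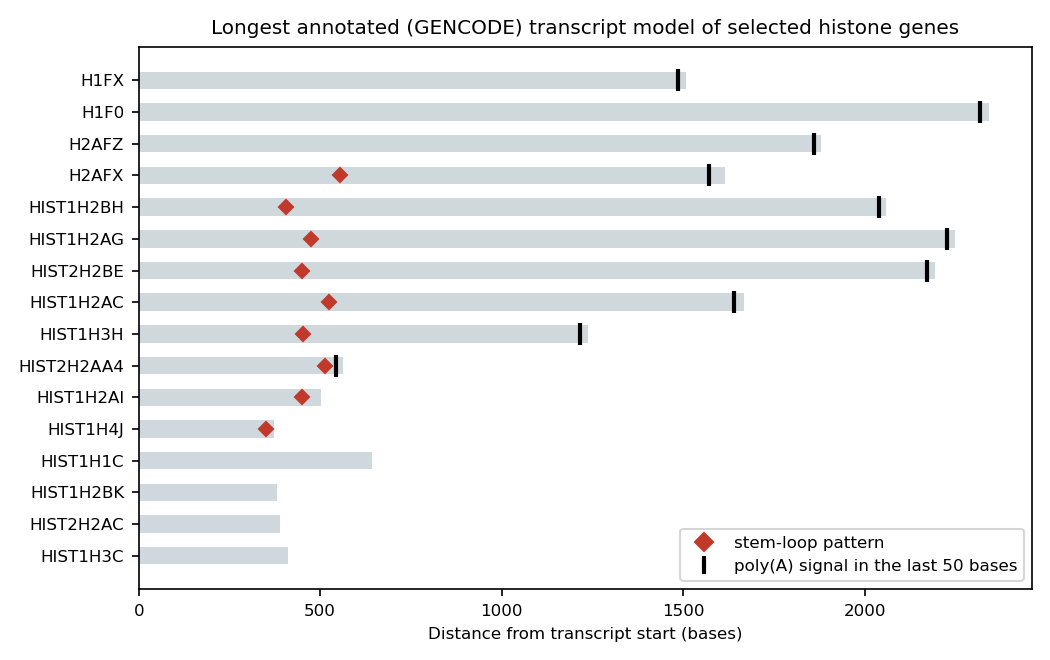
Longest annotated transcript of 16 histone genes, with distance from the transcript start in bases on the x axis, red diamonds for the stem-loop pattern and black ticks for a poly(A) signal. H2AFX (1614 bases, stem-loop at 555, signal at 1570) and HIST1H2BH (2060 bases, 405 and 2039) carry both, H1FX the signal alone, HIST1H4J the stem-loop alone and HIST1H1C neither.

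Libraries held 10154187 to 11922979 counts. Counts were put on a common library size as CPM, scaled by the trimmed mean of M values (TMM), and 14818 genes passed a minimum count of 10 and a minimum total of 15. AURKB itself fell from 101 to 39.9 CPM (log2 fold change -1.35 ± 0.08 SE, edgeR adjusted p = 2.54e-04), in the direction of the labels. T lineage markers (10 of 11 tested) summed to 3068 to 3232 CPM with shGFP and 3491 to 3626 CPM with shAURKB, without overlap. The 5 B lineage markers (2 tested, MS4A1 and PAX5 at 0 in every library) summed to 23.9 to 27.9 and 22.2 to 27.4 CPM. Library shGFP replicate 1 stood apart: fibroblast markers (6 listed, 4 of them at 0 throughout, among them COL3A1 and DCN) summed to 17.8 CPM and epithelial markers (5 listed) to 9.31 CPM there, against at most 0.258 and 1.03 CPM with shAURKB. The part of these markers in the results was not tested.

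Reads of the clustered genes were scarce and those of the variants were not. Summed over all 88 clustered genes without a filter, the level was 66.3, 67.2 and 67.7 CPM in the controls. The 8 variants summed to 2362, 2382 and 2355 CPM in the same libraries. As shares of all counts, the clustered genes took 0.00533% to 0.00687% and the variants 0.202% to 0.242%. Of the clustered genes, 17 had no read in any library (6 protein-coding, 11 pseudogenes). Another 71 had at least 1 read (65 protein-coding, 5 pseudogenes and the 1 not matched). Here 3 counts, the limit that a count of 0 allows, correspond to 0.248 to 0.293 CPM by library (counting error only). No more than 10 reached 10 reads in every library, and 3 reached 50 reads in any library. The filter on low counts left 23 clustered genes and all 8 variants. It does not show that the other 65 (50 protein-coding, 15 pseudogenes) were silent.

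Levels between genes were compared per kilobase of merged annotated exons. By this length H2AFX, the variant phosphorylated at DNA breaks, was highest with 228 CPM per kb in the controls. H1FX, a linker histone variant, followed with 214 and H2AFZ, which encodes the H2A.Z variant found at promoters, with 183. H3F3B, one of the pair of genes that encode the replacement histone H3.3, had 84.4, against 8.01 for its partner H3F3A. H2AFV, the second H2A.Z gene, had 51.4, H2AFY (macroH2A1, a variant with a large extra domain) 25.7, and H1F0, the linker variant known from resting and differentiated cells, 5.14. The 22 tested clustered genes with an annotated length lay between 0.233 and 24.6 CPM per kb (median 1.39, against 67.9 for the variants), and HIST1H2BK was the highest. By this measure HIST1H2BK exceeded H3F3A and H1F0 and lay close to H2AFY. The closeness to H2AFY rests on the lengths used, 381 bases for HIST1H2BK and 17730 merged bases for H2AFY. Every other tested clustered gene with an annotated length lay below H3F3A. For HIST2H2BD (1.15 CPM per kb) this place depends on the model used. The length implied by its deposited FPKM was 493 bases, against 3612 bases of merged exons. By deposited FPKM the control means were 8.55 for HIST2H2BD and 5.75 for H3F3A. A clustered model that ends at the coding region and one that runs far past the stem-loop differ in length, so these levels depend on the annotation. For variants, merged exons can also take in retained introns and noncoding transcripts. They came to 17730 bases for H2AFY and 2303 for H2AFZ, where the longest coding models have 2789 and 979 bases. The order of the variants therefore depends on the length used.

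**Figure D2:**
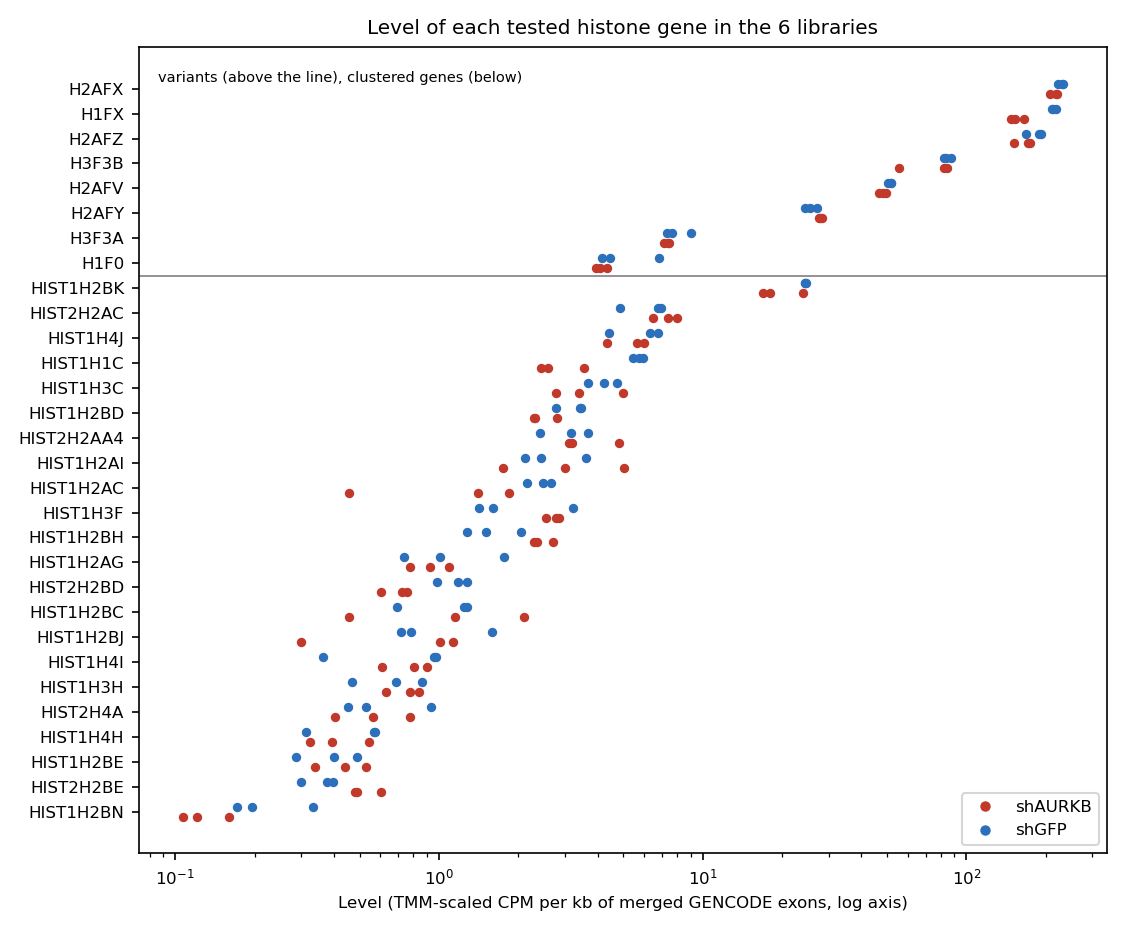
Level of the tested histone genes on a log axis, in CPM per kb of merged exons, with 1 point per library (blue for shGFP, red for shAURKB). The variants span 5.14 (H1F0) to 228 (H2AFX) in the controls, and the clustered genes 0.233 (HIST1H2BN) to 24.6 (HIST1H2BK).

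Of the 31 tested members 3 were called, all lower, where 23.3% of all tested genes were called (10.9% lower, 12.5% higher; edgeR adjusted p below 0.05). With upper-quartile scaling the balance over all genes turned from 1847 higher and 1609 lower to 1325 higher and 2087 lower. Linker histone genes held 2 of the 3 calls. HIST1H1C encodes a main linker histone of somatic cells, made from the chromosome 6 cluster (GRCh38, chr6:26055787-26056428, minus strand, a gene with a single exon in the model). It had 37, 38 and 46 reads with shGFP and 19, 16 and 24 with shAURKB. Scaled, these were 3.49, 3.69 and 3.80 CPM against 1.66, 1.56 and 2.28 CPM. Without any overlap between the arms, the gene fell by 0.99 ± 0.19 log2 units (SE, edgeR adjusted p = 0.0125). The call held under all 16 alternatives, among them the fit without shGFP replicate 1 (adjusted p = 0.0339), with adjusted p from 5.64e-03 to 0.0491. The deposited table places HIST1H2BB across the same stretch of chromosome 6, so reads could have been shared between them. In bulk RNA, fewer cells that make the histone mRNA and less of it per cell cannot be told apart, here and for the genes below.

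H1FX, on chromosome 3 (chr3:129314771-129316277, minus strand), had 3273 to 3879 reads per control library and 2363 to 2628 with shAURKB. Its levels were 329, 318 and 321 CPM in the controls and 223, 230 and 249 CPM with shAURKB. The lowest control lay well above the highest shAURKB library, and the fall of 0.46 ± 0.05 log2 units passed the test (edgeR adjusted p = 1.30e-03). All 16 alternatives kept it. The gene overlaps the antisense gene H1FX-AS1 over 886 bases, and counting by strand is not given in the sources used here.

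H1F0 had 16.0, 9.71 and 10.4 CPM in the controls and 10.2, 9.26 and 9.58 CPM with shAURKB. The high value belonged to shGFP replicate 1, the library that stood apart, and the arms overlapped. Its log2 fold change of -0.32 ± 0.20 did not pass (edgeR adjusted p = 0.298), and it was -0.06 without that library. The other 7 clustered H1 genes were not tested for lack of reads. Summed over all 8 clustered H1 genes, the level went from 3.96, 4.37 and 4.38 CPM to 2.19, 2.54 and 2.75 CPM, or 58.8% of the control mean. HIST1H1C supplied 121 of the 140 control reads in that sum, so it is nearly a restatement of that gene.

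Upstream sequences of HIST1H1C and H1FX are shown because both linker genes fell. The AAACACA element is known from linker histone promoters, and CCAAT and TATAAA from many histone promoters. Each line gives the 250 bases before the RefSeq transcript start (GRCh38.p14), with these 3 motifs in capitals on either strand.
HIST1H1C, chr6:26056471-26056720, minus strand: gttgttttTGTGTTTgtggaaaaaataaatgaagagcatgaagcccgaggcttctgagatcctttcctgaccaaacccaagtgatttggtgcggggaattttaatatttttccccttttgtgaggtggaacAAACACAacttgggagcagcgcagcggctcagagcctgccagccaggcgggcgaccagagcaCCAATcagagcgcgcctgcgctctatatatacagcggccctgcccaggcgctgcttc
H1FX, chr3:129316287-129316536, minus strand: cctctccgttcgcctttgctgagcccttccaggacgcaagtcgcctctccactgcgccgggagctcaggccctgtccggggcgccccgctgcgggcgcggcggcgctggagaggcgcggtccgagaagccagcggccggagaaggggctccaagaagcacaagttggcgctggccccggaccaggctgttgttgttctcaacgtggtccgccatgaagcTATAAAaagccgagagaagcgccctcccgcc

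The HIST1H1C stretch held AAACACA starting 119 bases before the start, its reverse complement 242 bases before it and CCAAT 57 bases before it. The H1FX stretch held TATAAA alone, 31 bases before the start. Over windows of 300 bases that also take in the first 50 transcribed ones, 62 clustered genes could be matched to RefSeq. Of these, 41 (66.1%) held TATAAA, 52 (83.9%) CCAAT and 9 (14.5%) AAACACA. The same motifs were found in 11.5%, 34.6% and 5.64% of all 35114 promoters. Of 5 matched variant genes, 4 held TATAAA, 4 held CCAAT and none held AAACACA. The 2 genes that fell therefore share none of these 3 motifs, and nothing follows from that about the factors that bind them.

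Among the clustered genes as a whole, 0 of 23 were called higher, 2 were called lower and 21 were not called. The share called lower over all tested genes was 10.9% by the same edgeR rule. At an unadjusted p under 0.05, 4 clustered genes were lower and 1 was higher, 5 of 23, against 37% of all tested genes (18.1% lower, 18.9% higher). The median log2 fold change was -0.12, against -0.0042 over all tested genes. Values below 0 were found for 14 of 23, against 50.6% of all tested genes. Leaving out 1 library turned the sign of 9 of the 23, none of them called. The arms did not overlap in 8 of the 23 (6 lower, 2 higher), against 42.6% of all genes (20.9% lower, 21.7% higher). The standard errors of these genes ran from 0.157 to 0.528 (median 0.309), against 0.048 for H1FX.

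The second clustered gene called was HIST2H2BD, an H2B pseudogene on chromosome 1 (chr1:149843041-149843533, plus strand). Its levels were 4.62, 4.27 and 3.55 CPM in the controls and 2.63, 2.73 and 2.18 CPM with shAURKB. Its arms did not overlap, and it fell by 0.72 ± 0.18 log2 units (edgeR adjusted p = 0.0307). This call was lost in 8 of 16 alternatives, among them the fit without shGFP replicate 1 (adjusted p = 0.0879) and DESeq2 (adjusted p = 0.119). HIST2H2BC, another H2B pseudogene of the chromosome 1 cluster (chr1:149850193-149850772), had 1.42, 1.75 and 1.07 CPM against 0.876, 0.390 and 1.04 CPM. With a log2 fold change of -0.85 ± 0.37 (edgeR adjusted p = 0.150) it did not pass, although its arms did not overlap. The deposited table also places HIST2H2BD inside the span of HIST2H2BE, whose values leaned the other way.

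H2B genes made up 10 of the 23 tested clustered genes and leaned both ways. HIST1H2BK had 9.34, 9.32 and 9.42 CPM in the controls and 6.83, 9.17 and 6.45 CPM with shAURKB. The 3 controls were nearly equal and the shAURKB libraries were spread, with a log2 fold change of -0.32 ± 0.16 (edgeR adjusted p = 0.183). HIST1H2BD had a value of -0.39 ± 0.19 (edgeR adjusted p = 0.191), HIST1H2BJ of -0.32 ± 0.52 (adjusted p = 0.695; 0.12 without shGFP replicate 1 and 0.07 without shAURKB replicate 3) and HIST1H2BN of -0.85 ± 0.35 (adjusted p = 0.129). None of these 4 passed, and HIST1H2BK and HIST1H2BN were those without overlap between the arms.

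Against these stood H2B genes with more reads in the shAURKB libraries. HIST1H2BH had 2.64, 3.11 and 4.21 CPM in the controls and 4.73, 5.56 and 4.84 CPM with shAURKB. The arms did not overlap, but the log2 fold change of 0.59 ± 0.20 did not pass (edgeR adjusted p = 0.0790) except without shGFP replicate 3 (0.81, adjusted p = 0.0405). HIST2H2BE had 0.661, 0.873 and 0.826 CPM against 1.05, 1.07 and 1.33 CPM. Its arms did not overlap either, and its log2 fold change was 0.54 ± 0.25 (edgeR adjusted p = 0.270). HIST1H2BC and HIST1H2BE had overlapping arms and values of 0.21 ± 0.53 and 0.16 ± 0.30, but no stable direction: HIST1H2BC was at -0.37 without shAURKB replicate 2, and both were at -0.03 without shGFP replicate 3. The sum over all 26 clustered H2B genes was 27.9 to 30.1 CPM in the controls and 22.4 to 28.8 CPM with shAURKB, and the arms overlapped.

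For H2A, 5 of 21 clustered genes were tested and none was called. HIST1H2AC had 4.44, 3.59 and 4.13 CPM in the controls and 3.06, 2.34 and 0.759 CPM with shAURKB. The arms did not overlap, but shAURKB replicate 3 was far below the other two, and the log2 fold change of -0.97 ± 0.40 did not pass (edgeR adjusted p = 0.128). Without that library it was -0.58. HIST2H2AC, HIST2H2AA4 and HIST1H2AI had log2 fold changes of 0.24 ± 0.20, 0.26 ± 0.27 and 0.26 ± 0.41, and HIST1H2AG of -0.31 ± 0.35. The sign turned for HIST1H2AI without shAURKB replicate 1 (-0.20) and for HIST1H2AG without shGFP replicate 2 (0.11). HIST2H2AA3 and HIST2H2AA4 are near-identical copies whose reads cannot be assigned safely, and together they had 2.17, 1.65 and 2.23 CPM against 2.80, 2.34 and 2.56 CPM. For this pair as a sum, the lowest shAURKB library lay just above the highest control.

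For H3, 3 of 17 clustered genes were tested, HIST1H3C (-0.18 ± 0.27), HIST1H3F (0.39 ± 0.35) and HIST1H3H (0.18 ± 0.31). All 3 had overlapping arms and none was called. Their family was the only one of the 5 whose mean sum was not below the controls, with 8.32 ± 1.87 CPM (SD, n = 3) against 8.21 ± 1.01, or 101% of the control mean. Without shGFP replicate 1 it was 94.8%. HIST1H3H was at -0.04 without shGFP replicate 3. For H4, 4 of 16 were tested: HIST1H4H, HIST1H4J, HIST2H4A and HIST1H4I had values of -0.23 ± 0.34, -0.12 ± 0.24, -0.12 ± 0.38 and 0.00 ± 0.39, and none was called. Without 1 library each, the last 3 of these turned sign, to 0.01 for HIST1H4J (shAURKB replicate 3), 0.23 for HIST2H4A (shGFP replicate 2) and 0.21 for HIST1H4I (shGFP replicate 3). The summed H4 level was 10.6, 9.32 and 9.17 CPM in the controls and 7.62, 8.68 and 7.59 CPM with shAURKB. These arms did not overlap, at 82.2% of the control mean.

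HIST4H4, the single gene of its cluster on chromosome 12, entered that H4 sum but was not tested. It had 33, 11 and 9 reads in the controls and 7, 3 and 6 with shAURKB, on average 1.64 and 0.491 CPM. The highest value was again that of shGFP replicate 1. Without that library the control mean was 0.906 CPM, and the H4 sum stood at 86.1% of control. HIST1H4K had 8, 8 and 9 control reads against 9, 12 and 8, and HIST2H3A had 4, 9 and 12 against 6, 8 and 8. These were the 3 untested clustered genes with the most reads. The 48 untested clustered genes with any read had 1 to 69 reads over all 6 libraries (median 20), with more reads in the shAURKB arm for 21, fewer for 25 and equal numbers for 2. No fold change is given for them.

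**Figure D3:**
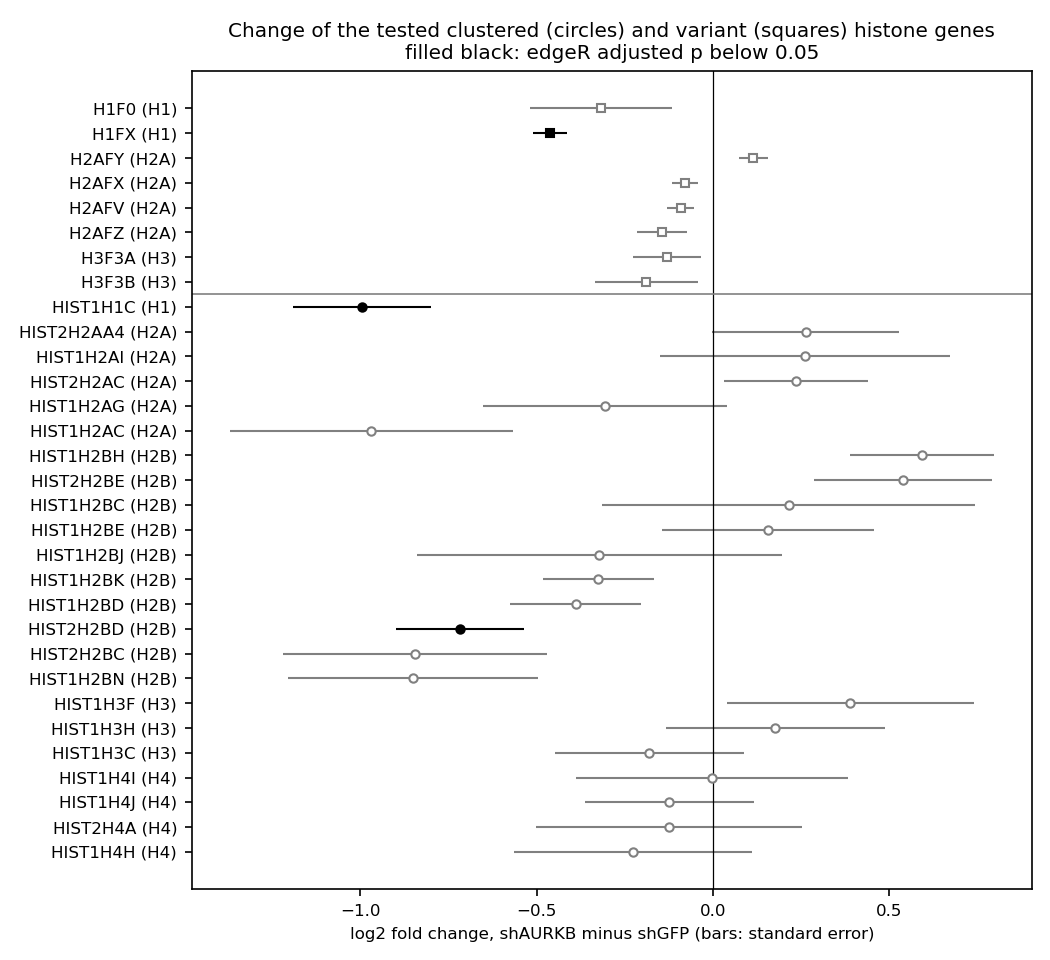
Log2 fold change of the 31 tested members, shAURKB minus shGFP, with standard errors; circles are clustered genes, squares are variants and filled black symbols have an edgeR adjusted p below 0.05. HIST1H1C (-0.99), HIST2H2BD (-0.72) and H1FX (-0.46) are filled. The clustered genes carry wider bars in the median (0.309, against 0.059 for the variants), with overlapping ranges.

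The 8 variants, linker variants included, had standard errors of 0.037 to 0.201 (median 0.059), and no core variant was called. H1FX was the 1 variant called lower and 0 were called higher, against 10.9% lower and 12.5% higher of all tested genes. At an unadjusted p under 0.05, 2 variants were lower and 1 was higher, 3 of 8, a share near the 37% of all tested genes. The median log2 fold change was -0.14 and 7 of 8 values lay below 0, against 50.6% of all tested genes. The arms did not overlap in 4 of the 8, 3 of them lower, against 42.6% of all tested genes (20.9% lower).

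Of the H2A variants, H2AFX had 370, 358 and 375 CPM in the controls and 336, 356 and 353 CPM with shAURKB. Every shAURKB library lay just below every control, and the log2 fold change was -0.08 ± 0.04 (edgeR adjusted p = 0.167). H2AFV had 246, 247 and 239 CPM against 236, 228 and 222 CPM, also without overlap, with -0.09 ± 0.04 (edgeR adjusted p = 0.126). Both are called lower with upper-quartile scaling (adjusted p = 0.0346 for H2AFX and 0.0387 for H2AFV), a scaling under which the median of all tested genes shifts from -0.0042 to -0.058. H2AFZ had 387, 441 and 434 CPM against 394, 400 and 348 CPM, with overlap and -0.14 ± 0.07 (edgeR adjusted p = 0.188).

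H2AFY was the single variant with a positive value. It had 455, 480 and 434 CPM in the controls and 492, 501 and 490 CPM with shAURKB. Although the arms were separate, the log2 fold change of 0.11 ± 0.04 did not pass (edgeR adjusted p = 0.0916) except without shGFP replicate 2 (0.16, adjusted p = 0.0429). With upper-quartile scaling it was 0.06.

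For the replacement histone H3.3, H3F3B had 536, 505 and 513 CPM in the controls and 341, 518 and 504 CPM with shAURKB. The low value was shAURKB replicate 1 alone, and the other shAURKB libraries lay within or next to the control range. The log2 fold change was -0.19 ± 0.15 (edgeR adjusted p = 0.397), and -0.02 without that library. H3F3A had 23.0, 24.1 and 28.5 CPM against 23.4, 22.5 and 23.2 CPM, with -0.13 ± 0.10 (edgeR adjusted p = 0.371). Of its transcript words of 50 bases, 11.7% also occur in other annotated genes, its processed pseudogenes among them. Over 50% was shared in 5 tested clustered genes: HIST2H4A (97.5%), HIST2H2AA4 (97.1%), HIST1H4J (81.2%), HIST1H2BK (74.1%) and HIST1H2AI (62.3%). The untested HIST1H4K and HIST2H3A shared 100%. HIST2H2BD shared 16.5% over all its models, but 95.0% in its model of 493 bases, the length implied by its deposited FPKM. Reads of such genes cannot be assigned safely, so single-gene values are uncertain. As sums, HIST1H4J with HIST1H4K stood at 98.4% of control, HIST2H4A with HIST2H4B at 82.9% and HIST2H3A with HIST2H3C at 104%. HIST2H2BC with HIST2H2BD stood at 59.0%.

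Set side by side, clustered genes and variants both summed to less in the shAURKB libraries. The clustered sum went from 66.3, 67.2 and 67.7 CPM to 57.7, 62.1 and 54.5 CPM, or 86.7% of the control mean (log2 ratio -0.21). The variant sum went from 2362, 2382 and 2355 CPM to 2055, 2265 and 2199 CPM, or 91.8% (log2 ratio -0.12). It holds the called H1FX, and its lowest value is that of shAURKB replicate 1, where H3F3B was low. H2AFY leaned the other way, so the variant sum does not speak for each variant. In both sums every shAURKB library lay below every control. The ratio of variant to clustered reads was 35.7, 35.5 and 34.8 in the controls and 35.6, 36.5 and 40.3 with shAURKB, and the arms overlapped in it.

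The HIST1 genes of chromosome 6 (66 genes) stood at 87.8% and the HIST2 genes of chromosome 1 (17 genes) at 88.9%. Grouped by annotated end, the sum was 86.6% of control for the 22 genes with stem-loop and poly(A) signal, 89.6% for the 12 with the stem-loop alone and 87.9% for the 51 with neither. These 3 values lay close together.

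**Figure D4:**
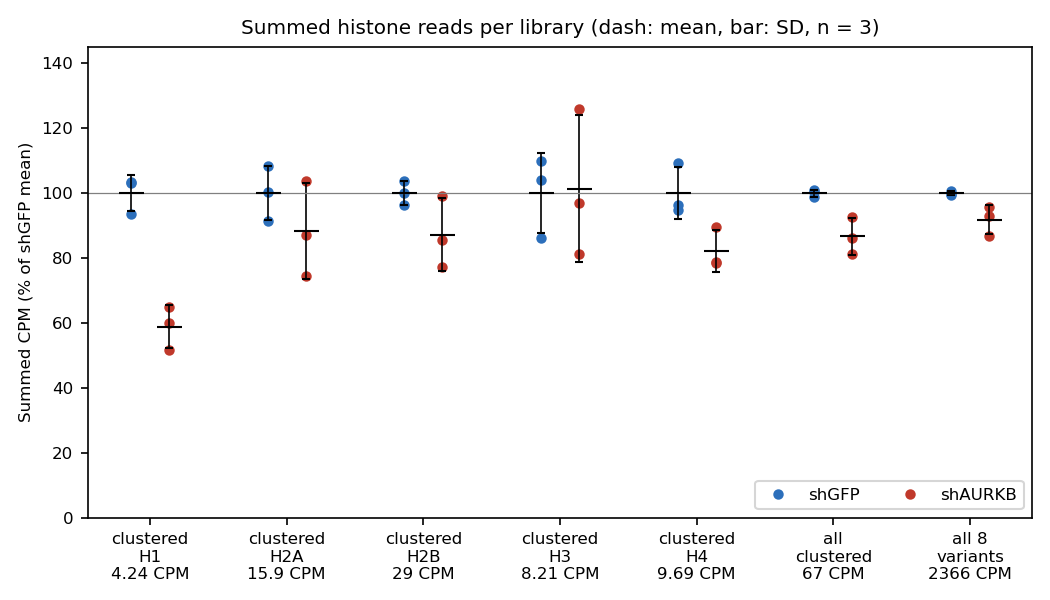
Summed CPM per library as a percentage of the shGFP mean, for the 5 clustered families, all clustered genes and all 8 variants; points are libraries, dashes means and bars SD (n = 3). H1 stands at 58.8%, H2A at 88.4%, H2B at 87.2%, H3 at 101%, H4 at 82.2%, all clustered genes at 86.7% and the variants at 91.8%.

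Genes that make, process and carry histones were counted from a list of 51, all tested. Of these, 9 were called higher and 1 lower by edgeR, with a median log2 fold change of 0.07 (all genes 12.5% higher, 10.9% lower). The single gene called lower was NPAT, the co-activator of clustered histone transcription. It had 79.3, 90.9 and 87.3 CPM in the controls and 66.3, 65.4 and 62.8 CPM with shAURKB, without overlap. NPAT fell by 0.41 ± 0.07 log2 units (edgeR adjusted p = 6.27e-03). CASP8AP2, its partner in the histone locus body, had -0.05 ± 0.10 (adjusted p = 0.758), or 0.08 without shGFP replicate 3.

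SLBP, whose protein binds the stem-loop, had 154, 155 and 156 CPM in the controls and 220, 187 and 175 CPM with shAURKB. All controls lay below all shAURKB libraries, and the rise of 0.32 ± 0.08 log2 units passed the test (edgeR adjusted p = 0.0301), but not in 9 of 16 alternatives. LSM10 and LSM11, subunits of the U7 particle that cleaves histone pre-mRNA, were not called, with 0.08 ± 0.07 and 0.07 ± 0.08. UPF1, a helicase that takes part in histone mRNA decay at the end of replication, rose by 0.31 ± 0.03 (edgeR adjusted p = 1.71e-03), from 313, 313 and 328 to 386, 399 and 393 CPM. Within the 23 genes of transcription and 3′ end processing, 5 were called higher and 1 lower (all genes 12.5% higher, 10.9% lower).

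Of the 28 chaperone and deposition genes, 4 were called higher and 0 lower (all genes 12.5% higher, 10.9% lower). IPO4, an importin that carries H3 and H4 into the nucleus, had 53.8, 49.1 and 47.6 CPM in the controls and 66.5, 71.3 and 67.1 CPM with shAURKB, without overlap. Its rise was 0.45 ± 0.07 log2 units (edgeR adjusted p = 4.81e-03). CENPA, the centromeric H3 variant on which AURKB also acts, rose by 0.23 ± 0.07 (edgeR adjusted p = 0.0490), from 39.3 to 46.1 CPM. Its call was lost in 13 of 16 alternatives.

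**Figure D5:**
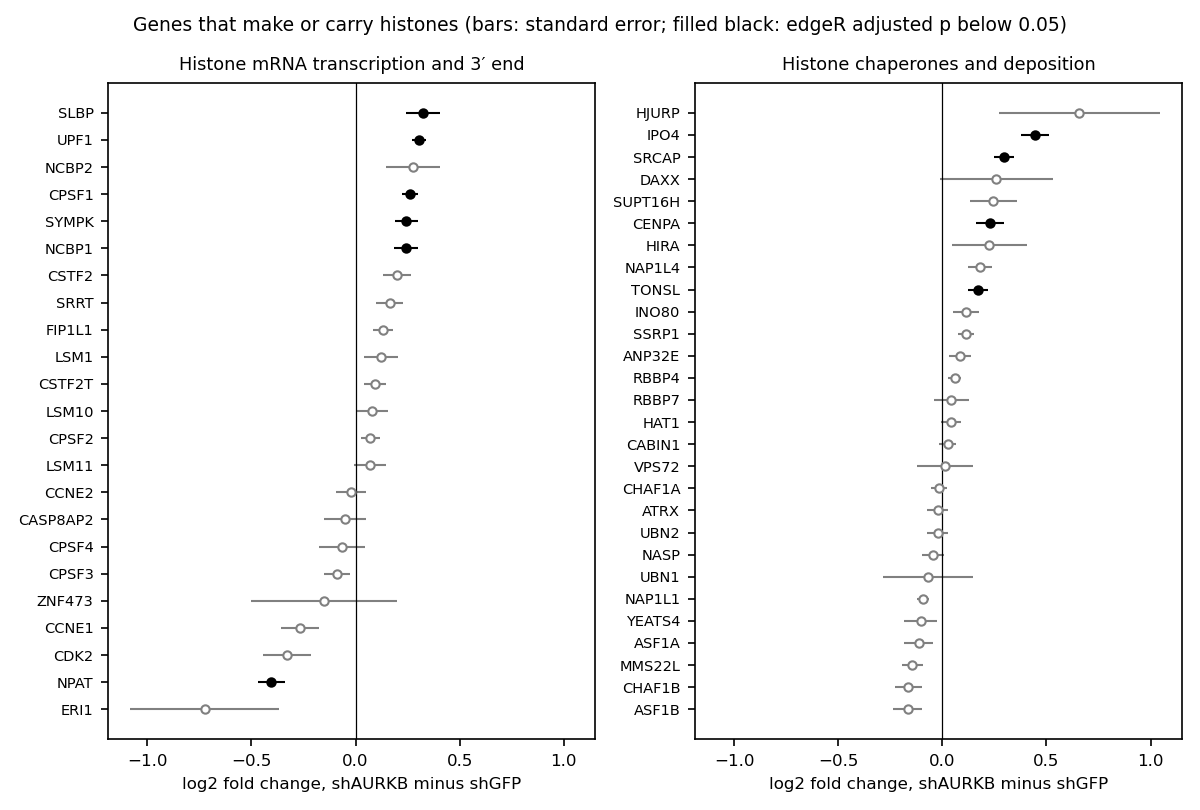
Log2 fold change (shAURKB minus shGFP, with standard errors) of the 23 genes of histone transcription and 3′ end processing and the 28 of histone chaperoning and deposition. Filled symbols have an edgeR adjusted p below 0.05: 5 higher and 1 lower (NPAT, -0.41) in the first panel, 4 higher in the second.

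Because clustered histone mRNA belongs to S phase, 35 S phase genes were counted beside it. Of these, 3 were called higher and 1 lower by edgeR (all genes 12.5% higher, 10.9% lower), and their median log2 fold change was 0.01. SLBP is on this list too and had the largest rise. The gene called lower was POLE, the catalytic subunit of a replicative DNA polymerase, at -0.30 ± 0.04 (adjusted p = 2.16e-03).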

How the data were processed

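Members and gene lists were chosen with earlier results of these data known. Groups and replicate numbers came from the sample titles. The authors deposited whole-number counts per gene and FPKM values for 6 libraries. HISAT2 2.0.4, StringTie 1.3.0, edgeR and GRCh38 are named, per the submitters' processing notes. The sources used here give no strand setting, library selection or handling of reads with several matches, so reads of near-identical or overlapping histone genes may be split or lost. The deposited FPKM divides by 1 length per gene, which equalled merged exons for 54 of 79 members with reads and exceeded them for most others with several transcripts, so levels between genes used CPM per kb of GENCODE 29 exons (95 of 96 members matched by identifier).

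Low counts were removed by filterByExpr, set to a minimum count of 10 and a total of 15, which kept 14818 genes with at least 99.65% of each library's counts. TMM factors were 0.979 to 1.02. The arms were then tested in edgeR 4.0.16 (R 4.3.3) by its two-sided quasi-likelihood test, and a gene was called at a Benjamini-Hochberg adjusted p below 0.05, taken over the whole table. The biological coefficient of variation was 12.71%. No 2 libraries of an arm were copies (chi-square per degree of freedom 6.73 to 7.61). Sums took every listed gene and have no test. The test was run on simulated data first. The 16 alternatives were upper-quartile and RLE scaling, 2 other tools for counts (DESeq2 1.42.0 and the voom of limma 3.58.1), no filter, a filter at 1 CPM in 3 libraries, a block for the replicate number, limma-trend fits to log2 FPKM (pseudocounts 1 and 0.1 after a filter, 1 without it), and omission of each of the 6 libraries. Family sums without shGFP replicate 1 were added after seeing the data. Named were all tested members, the 3 untested clustered genes with the most reads, and by rule SLBP, NPAT, CASP8AP2, LSM10, LSM11, CENPA and the most changed called list genes. Coordinates are those of the deposited table for genes.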

Additional observations from a re-analysis of the deposited data

How the results depend on the processing

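No called gene changed sign. Clustered genes called lower numbered 1 with DESeq2, with no low-count filter and with the replicate block, and 1 clustered gene (HIST1H2BO, named after its values were seen) was called higher on filtered FPKM with either pseudocount. Variants called lower numbered 3 with upper-quartile scaling and on filtered FPKM. Supply genes called higher numbered 5 with upper-quartile scaling and 4 in each FPKM fit, and those called lower 4, 2 (block), 3 (filtered FPKM) and 2 (unfiltered FPKM). S phase genes called higher numbered 1 with upper-quartile scaling, the block and filtered FPKM and 0 on unfiltered FPKM, and those called lower 4 with upper-quartile scaling and filtered FPKM, 3 on unfiltered FPKM and 2 at 1 CPM in 3 libraries. Over all genes, 1325 were called higher and 2087 lower with upper-quartile scaling, 914 were called higher on unfiltered FPKM and 1027 lower with the block. The variant sum had a log2 ratio of -0.174 scaled by the total count and -0.177 with upper-quartile scaling. The causes were not tested. No shared effect of the replicate number was seen: same-numbered libraries had correlations of -0.089, -0.031 and -0.037, against -0.028 to 0.061 for the others. Values near 0 cannot show that same-numbered cultures were handled apart.

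Leaving out each library gave 1271 to 1336 genes called higher and 998 to 1056 lower, 0 to 1 and 1 to 3 clustered genes, 0 to 1 and 1 variants, 5 to 7 and 1 to 2 supply genes and 1 to 3 and 1 to 2 S phase genes, and log2 ratios of -0.256 to -0.162 for the clustered sum and -0.154 to -0.0842 for the variant sum. Low read numbers limit the clustered genes, 65 of which could not be tested.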
